A study of Mus musculus with 11 samples.

Results

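The 10 genes described here belong to the mammalian circadian clock and to its immediate output. They are Arntl, which encodes the activator BMAL1; the period genes Per1, Per2 and Per3; the cryptochrome gene Cry1; the repressor gene Ciart; the REV-ERB receptor genes Nr1d1 and Nr1d2; and Dbp and Tef, which encode PAR bZIP transcription factors. They are 10 of the 32285 genes in the count table, and all 10 were among the 15093 genes that passed the filter on low counts. The genes were named for their function, but the set was chosen by someone who had earlier results of these counts in view, and no record says which contrast was looked at. Every contrast is therefore treated as used in the choice, and the values and calls of the 10 genes are given as a description.

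The counts came from isolated mouse islets of 16-week-old animals that had eaten a high-fat diet for 4 weeks. The labels divide 11 libraries into 4 groups. These are βZKO_Mip islets with azoramide (3 libraries), βZKO_Mip islets with DMSO (2 libraries), littermate control islets with azoramide (3 libraries) and littermate control islets with DMSO (3 libraries). βZKO_Mip stands for a β-cell-specific knockout of Zzef1, a large zinc-finger protein gene, and the labels do not spell out the driver. Azoramide, a small molecule that modulates the unfolded protein response, was given at 10 µM for 24 h, and DMSO, also listed at 10 µM, is its solvent. Each library pooled islets from 3 or more mice. Azoramide and DMSO libraries of the same genotype and number share a stem in their names, which may mark pairs, and the main fit did not pair them. Whether libraries share mice or cultures is not stated, so the spread between libraries may be partly technical. The hour at which islets were collected or lysed is not given in the sources used here, and it was not used in any fit.

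The clock is a feedback loop of transcription. CLOCK and BMAL1 bind as a pair to E-box sequences and activate the Per and Cry genes, Ciart, Nr1d1, Nr1d2 and Dbp; PER and CRY proteins then return to the nucleus and block the pair, and CIART, also called CHRONO, blocks it as well. REV-ERB receptors repress Arntl through ROR elements, and DBP, TEF and their relative HLF activate genes with D-box sequences, such as the Per genes, in competition with the repressor NFIL3. In mouse beta cells this loop is known to be needed for normal insulin secretion in response to glucose.

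Of the members, 7 have at least one of the sequence motifs just named in the 250 bases before their RefSeq start. The windows of 5 of them are printed, picked to show where E-boxes, E′-boxes and D-boxes stand. Whether the motifs bear on the levels was not tested. The windows are RefSeq sequence of GRCm38.p6, written 5′ to 3′ on the strand of the gene, and capitals mark the matches. The motifs searched on both strands were the E-box CACGTG, the variant E′-box CACGTT, the D-box TTATGTAA, the ROR element core AGGTCA and the cAMP response element TGACGTCA. The E′-boxes of Nr1d1 and Cry1 and the ROR core of Per1 lie on the opposite strand, so their capitals read as the reverse complement. The windows lie at chr11:98775378-98775627 (minus strand, Nr1d1), chr11:69098699-69098948 (plus strand, Per1, the first of its windows), chr4:151044666-151044915 (minus strand, Per3), chr10:85185055-85185304 (minus strand, Cry1) and chr3:95882229-95882478 (minus strand, Ciart).
Nr1d1: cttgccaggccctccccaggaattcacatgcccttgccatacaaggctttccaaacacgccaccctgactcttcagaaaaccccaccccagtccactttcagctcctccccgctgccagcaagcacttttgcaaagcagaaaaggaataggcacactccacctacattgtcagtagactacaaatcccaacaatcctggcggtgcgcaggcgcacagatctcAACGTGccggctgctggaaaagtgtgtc
Per1: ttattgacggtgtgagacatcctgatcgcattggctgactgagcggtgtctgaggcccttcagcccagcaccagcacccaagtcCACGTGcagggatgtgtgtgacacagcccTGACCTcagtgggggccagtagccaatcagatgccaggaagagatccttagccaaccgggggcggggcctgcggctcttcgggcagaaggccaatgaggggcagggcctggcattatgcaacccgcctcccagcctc
Per3: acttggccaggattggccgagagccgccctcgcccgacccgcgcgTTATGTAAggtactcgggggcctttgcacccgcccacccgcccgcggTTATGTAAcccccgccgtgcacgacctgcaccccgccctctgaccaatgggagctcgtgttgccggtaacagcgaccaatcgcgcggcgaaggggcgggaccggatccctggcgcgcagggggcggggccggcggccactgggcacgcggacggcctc
Cry1: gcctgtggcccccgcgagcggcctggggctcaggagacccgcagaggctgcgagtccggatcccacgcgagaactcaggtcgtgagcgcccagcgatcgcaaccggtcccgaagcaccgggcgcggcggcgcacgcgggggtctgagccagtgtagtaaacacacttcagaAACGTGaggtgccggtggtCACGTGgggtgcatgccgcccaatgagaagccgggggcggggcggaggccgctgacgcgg
Ciart: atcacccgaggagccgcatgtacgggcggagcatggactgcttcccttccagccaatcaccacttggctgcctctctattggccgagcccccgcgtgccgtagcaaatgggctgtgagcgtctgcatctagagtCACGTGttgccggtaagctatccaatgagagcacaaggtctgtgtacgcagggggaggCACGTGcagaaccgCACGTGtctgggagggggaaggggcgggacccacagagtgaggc
Ciart held 3 E-boxes, which began 116, 58 and 44 bases before the start. Cry1 held an E-box at 60 bases and an E′-box at 79 bases, and Per1 held an E-box at 166 bases and an ROR core at 137 bases. Nr1d1 held an E′-box at 28 bases, and Per3 held D-boxes at 205 and 158 bases. Of the other windows, Tef held an E-box and Nr1d2 an ROR core, and none of the searched letters were present for Dbp or Arntl. Over all 32851 windows of this length, 6.02% held the E-box, 3.85% the E′-box, 0.819% the D-box, 14.0% the ROR core and 1.55% the cAMP response element. A match describes the letters only, and 9 of the 10 members had a window in the table.

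Library totals were 16832800 to 19501813 counts. Levels are given as CPM, counts scaled to the size of each library, after TMM scaling, an edgeR step that sets libraries on a common scale. Zzef1 (chromosome 11, which also carries Nr1d1 and Per1) was read in every library. It averaged 72.8 ± 4.5 CPM with azoramide in libraries labelled knockout (SD, n = 3), against 66.6 ± 2.0 CPM with azoramide in control islets (SD, n = 3). With DMSO it averaged 81.5 ± 2.9 CPM in libraries labelled knockout (SD, n = 2), against 97.2 ± 12.2 CPM in control islets (SD, n = 3). The differences were 0.13 (SE 0.08) with azoramide and -0.26 (SE 0.09) with DMSO on the log2 scale, and neither passed the test over all genes (edgeR adjusted p = 0.968 and 0.999). The targeted gene was thus not clearly reduced, islets hold other cells besides beta cells, and the libraries are called labelled knockout throughout. With azoramide Zzef1 fell in control islets by 0.55 (SE 0.08, edgeR adjusted p = 3.5e-05), though with an offset for exon length and GC content it was at -0.17 and did not pass (adjusted p = 0.179). It differed by -0.16 in libraries labelled knockout (SE 0.09, adjusted p = 0.153), and the interaction of label and treatment was 0.39 (SE 0.12, adjusted p = 0.999). Directions between genotypes rest on the label alone. In whole islets, fewer cells of a type and less RNA per cell cannot be told apart.

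All 10 clock genes were well read in every library, with 180 counts in the lowest case (Arntl) and 3503 in the highest (Nr1d2). Levels between genes are compared per kilobase of exon, as means over the 11 libraries. Nr1d2 stood highest at 26.9 ± 3.0 CPM per kb (SD, n = 11). Per1 followed at 13.2 ± 1.9, Per2 at 11.1 ± 2.1, Tef at 10.7 ± 2.4, Dbp at 10.4 ± 3.4, Cry1 at 9.29 ± 0.88, Nr1d1 at 7.70 ± 1.9 and Ciart at 6.77 ± 1.3 CPM per kb. Per3 stood at 3.18 ± 1.2 and Arntl, the activator, lowest at 1.64 ± 0.41 CPM per kb. Between Per1 and Ciart no neighbours in this order differed by more than their SDs added together, and nor did Per3 and Arntl. By the same measure Nr1d2 stood apart from Per1, and Ciart from Per3. These SDs span all groups and are not the error of a comparison between genes. The clock genes also differed in how widely they ranged across libraries. The highest library exceeded the lowest 2.65-fold for Dbp, 2.38-fold for Per3, 2.37-fold for Arntl and 2.08-fold for Nr1d1, but only 1.43-fold for Cry1 and 1.49-fold for Per1.

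**Figure D1:**
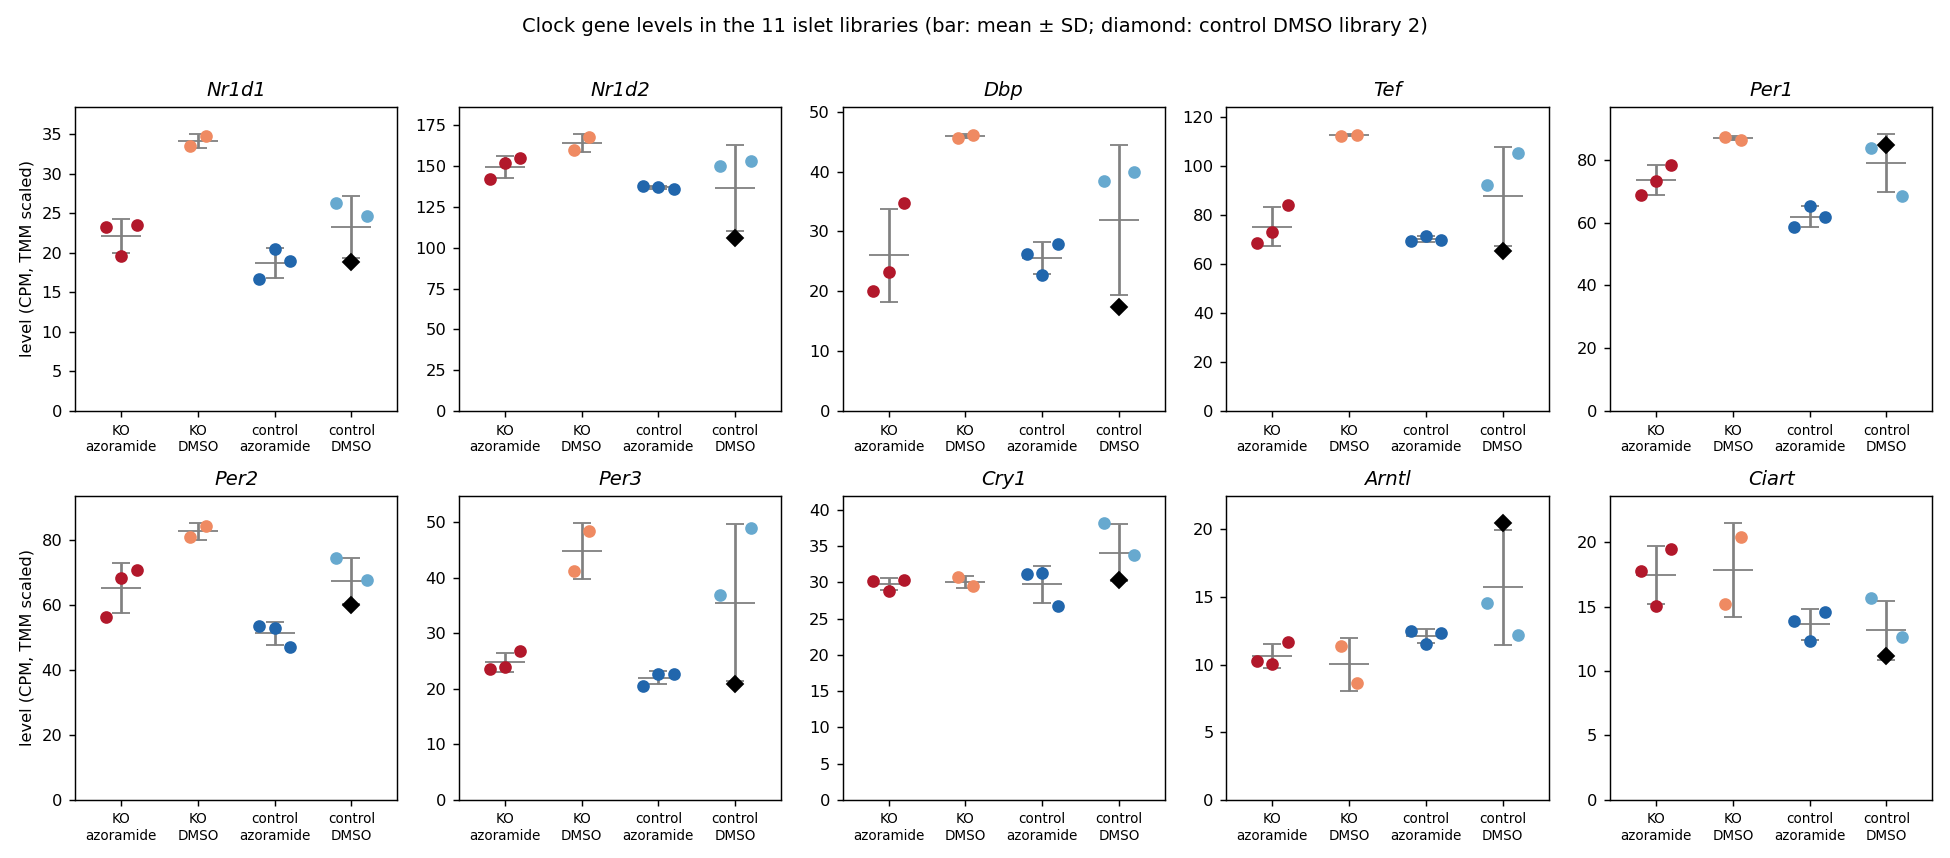
Level of each clock gene in CPM after TMM scaling (linear axes from 0) in the 11 libraries by group, where KO marks libraries labelled knockout; points are libraries, the long bar is the group mean and whiskers are 1 SD, and the black diamond is control DMSO library 2. For Dbp that library stood at 17.4 CPM, below the 10 other libraries, and for Arntl at 20.5 CPM, above them.

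Control DMSO library 2 stood apart from the other control DMSO libraries in the clock genes, and the members' log2 differences in comparisons that hold it are also given without it. Dbp was at 38.4, 17.4 and 39.9 CPM in control DMSO libraries 1, 2 and 3. Per3 was at 36.9, 20.8 and 48.9 CPM in the same libraries, Tef at 92.1, 65.4 and 105 CPM, and Nr1d2 at 150, 106 and 153 CPM. Arntl went the other way, with 14.5, 20.5 and 12.2 CPM. Library 2 was thus low for D-box factors and Per3 and high for the activator. Relative to the mean of libraries 1 and 3, it differed on the log2 scale by -1.17 for Dbp, -1.03 for Per3, -0.59 for Tef, -0.52 for Nr1d2, -0.44 for Nr1d1, -0.33 for Ciart, -0.24 for Cry1 and for Per2, 0.16 for Per1 and 0.62 for Arntl. It was below both of the others for 8 members and above both for 2, and it was the lowest of all 11 libraries for Nr1d2, Dbp, Tef and Ciart. A difference of at least 0.5 in size occurred in 5 of the 10 members, against 16.06% of all genes tested, for which the median size was 0.17. The library was singled out on these same members, so nothing is read from that count.

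Several clock genes outside the set had control DMSO library 2 at or near an end of their range. Hlf, a further PAR bZIP factor, was at 13.1, 7.28 and 17.2 CPM in control DMSO libraries 1, 2 and 3. Nfil3, the D-box repressor, was at 19.2, 33.7 and 12.7 CPM, and Npas2, a relative of Clock that also pairs with BMAL1, was at 8.29, 11.5 and 6.43 CPM. For Arntl, Npas2 and Nfil3 the library was the highest of the 11, while Clock itself differed by 0.07. The summed level of 9 acinar markers was 5395 CPM in control DMSO library 2, against 1393 and 969 CPM in libraries 1 and 3. It was 6324 CPM in labelled-knockout azoramide library 2, 4923 CPM in control azoramide library 2 and 1097 CPM in labelled-knockout azoramide library 3. In the same order, the median distance of a member from its group mean was 0.06, 0.07 and 0.12 on the log2 scale. Below that mean lay 8, 3 and 0 members. A link between acinar content and the clock gene values was not tested. Among the other groups, labelled-knockout azoramide library 3 lay above its group mean for all 10 members, most for Dbp, with 20.1, 23.2 and 34.8 CPM in libraries 1, 2 and 3. The median distance of a member from its group mean on the log2 scale was 0.32 in control DMSO library 2, against 0.03 to 0.19 in the 10 other libraries. Over all genes tested that library was also the farthest from its group mean, with a median of 0.11 against 0.06 to 0.10. The lowest member value, 0.03, was that of the 2 labelled-knockout DMSO libraries, whose group mean lies midway between them.

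**Figure D2:**
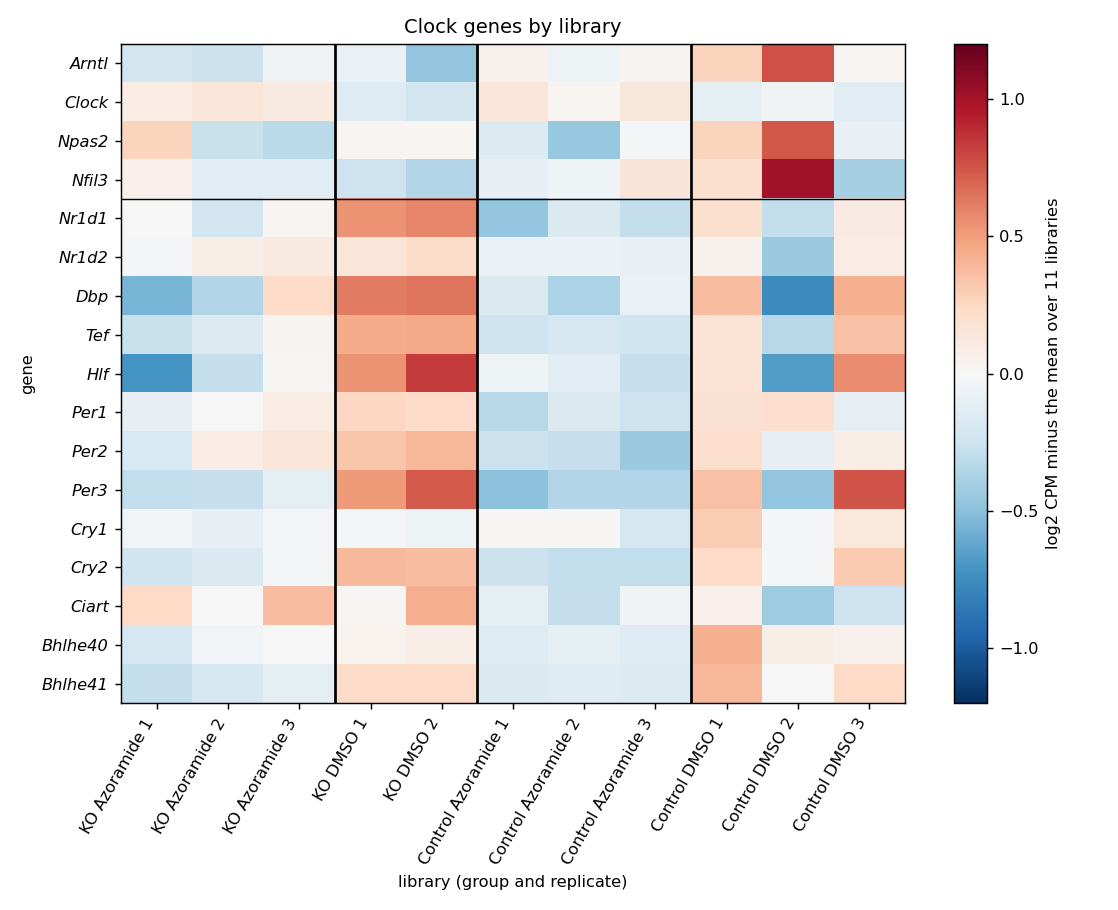
Level of 17 clock genes in each of the 11 libraries, as the difference of log2 CPM from the gene's mean over all libraries (colour scale -1.2 to 1.2), with libraries in columns by group. Control DMSO library 2 has Dbp, Per3, Tef, Nr1d2 and Hlf at low values and Arntl, Npas2 and Nfil3 at high values, against the reverse in the other control DMSO libraries for Dbp and Per3.

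Whether azoramide altered the clock genes was examined first in libraries labelled knockout. The period genes, both REV-ERB genes and both D-box factors were lower with azoramide, with log2 fold changes of -0.86 for Per3 to -0.13 for Nr1d2, except that Per1 was higher with an offset for exon length and GC content. Cry1 (-0.01), Ciart (-0.03) and Arntl (0.09) differed little. By the edgeR quasi-likelihood test with an adjusted p under 0.05 over all genes, 5 members were called lower (Nr1d1, Tef, Per1, Per2 and Per3) and 0 higher. The same call was made for 39.8% of all genes tested, 20.0% higher and 19.8% lower, so nothing about the clock genes is read from their count. Without azoramide library 1 or 2 the count of members called was 1 and 2, against 34% and 33.3% of all genes tested. Nr1d1 was called in both of these fits. With all libraries the 10 members had a median log2 fold change of -0.29, against -0.00 for all genes tested. Without DMSO library 1 or 2, which leaves 1 DMSO library, the members' median was -0.31 and -0.28.

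By role, the activator gene Arntl was at 10.3, 10.0 and 11.7 CPM with azoramide and 11.4 and 8.63 CPM with DMSO in libraries labelled knockout. The groups overlapped, and the difference was 0.09 (SE 0.19). Among the repressors, Per1 was at 68.8, 73.3 and 78.3 CPM with azoramide, against 87.4 and 86.5 CPM with DMSO. Per2 was at 56.5, 68.3 and 70.9 CPM with azoramide, against 81.0 and 84.5 CPM with DMSO. Per3 was at 23.6, 23.9 and 26.8 CPM with azoramide, against 41.2 and 48.3 CPM with DMSO. For each of the 3 period genes all azoramide libraries lay below both DMSO libraries, with log2 fold changes of -0.24 (SE 0.09) for Per1, -0.34 (SE 0.10) for Per2 and -0.86 (SE 0.29) for Per3. Cry1, the repressor that keeps the CLOCK and BMAL1 pair inactive, was at 30.1, 28.9 and 30.4 CPM with azoramide and 30.7 and 29.5 CPM with DMSO (-0.01, SE 0.10). Ciart was at 17.8, 15.1 and 19.5 CPM with azoramide and 15.2 and 20.4 CPM with DMSO (-0.03, SE 0.16). Both overlapped between treatments.

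The REV-ERB gene Nr1d1 was at 23.2, 19.6 and 23.5 CPM with azoramide in libraries labelled knockout, against 33.6 and 34.8 CPM with DMSO (-0.63, SE 0.13). Its relative Nr1d2 was at 142, 152 and 155 CPM with azoramide, against 160.1 and 168 CPM with DMSO (-0.13, SE 0.12). All azoramide libraries were below the DMSO libraries for both receptors, by a wide margin for Nr1d1 and a narrow one for Nr1d2. Dbp was at 20.1, 23.2 and 34.8 CPM with azoramide, against 45.7 and 46.1 CPM with DMSO (-0.82, SE 0.36). Tef was at 68.5, 73.2 and 83.9 CPM with azoramide, against 112 and 113 CPM with DMSO (-0.58, SE 0.16). Neither D-box factor overlapped between treatments, although azoramide library 3 was nearest the DMSO libraries for both. Groups did not overlap, with azoramide lower, for 7 members in all (Nr1d1, Nr1d2, Dbp, Tef, Per1, Per2 and Per3), a pattern that 31.4% of all genes tested had.

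In control islets, Arntl was at 12.4, 11.5 and 12.3 CPM with azoramide and 14.5, 20.5 and 12.2 CPM with DMSO, which overlapped (-0.38, SE 0.16). Without control DMSO library 2 its difference was -0.14. Per1 was at 58.5, 65.1 and 61.9 CPM with azoramide, against 83.7, 84.8 and 68.5 CPM with DMSO (-0.35, SE 0.08). Per2 was at 53.7, 53.1 and 47.2 CPM with azoramide, against 74.5, 60.1 and 67.7 CPM with DMSO (-0.39, SE 0.09). These were the members without overlap between treatments, 2 of 10 and both lower with azoramide, a pattern that 24.6% of all genes tested had. Per3 was at 20.6, 22.7 and 22.7 CPM with azoramide and 36.9, 20.8 and 48.9 CPM with DMSO (-0.69, SE 0.27), where DMSO library 2 lay among the azoramide libraries. Cry1 was at 31.2, 31.3 and 26.8 CPM with azoramide and 38.2, 30.3 and 33.8 CPM with DMSO (-0.20, SE 0.09). Ciart was at 13.9, 12.3 and 14.6 CPM with azoramide and 15.7, 11.2 and 12.7 CPM with DMSO (0.05, SE 0.15), and both genes overlapped between treatments.

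Nr1d1 in control islets was at 16.7, 20.5 and 18.9 CPM with azoramide and 26.3, 18.8 and 24.7 CPM with DMSO (-0.31, SE 0.12). Nr1d2 was at 138, 137 and 136 CPM with azoramide and 150, 106 and 153 CPM with DMSO (0.01, SE 0.11). Dbp was at 26.1, 22.6 and 27.9 CPM with azoramide and 38.4, 17.4 and 39.9 CPM with DMSO (-0.31, SE 0.33). Each of these overlapped, and in each the overlap came from DMSO library 2, whose value was below at least 1 azoramide library. Tef had the same layout, with 69.1, 71.3 and 69.9 CPM with azoramide and 92.1, 65.4 and 105 CPM with DMSO (-0.32, SE 0.15). The edgeR test called 3 members lower (Nr1d1, Per1 and Per2) and 0 higher, while it called 39.0% of all genes tested, 19.3% higher and 19.8% lower. Of 14 alternatives, Nr1d1 was called in 5, against 13 each for Per1 and Per2. The members' median was -0.32, against -0.02 for all genes. Without control DMSO library 2, 7 members were called lower (Cry1, Dbp, Nr1d1, Per1, Per2, Per3 and Tef), with log2 fold changes of -0.96 for Per3, -0.61 for Dbp, -0.49 for Tef, -0.47 for Per2, -0.45 for Nr1d1, -0.30 for Per1 and -0.27 for Cry1. Nr1d2 was then at -0.15 and Ciart at -0.06. That fit called 40.1% of all genes tested, and the library had been singled out on these same genes. Nothing is read from the count. Both azoramide comparisons were made within a genotype and share no library.

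**Figure D3:**
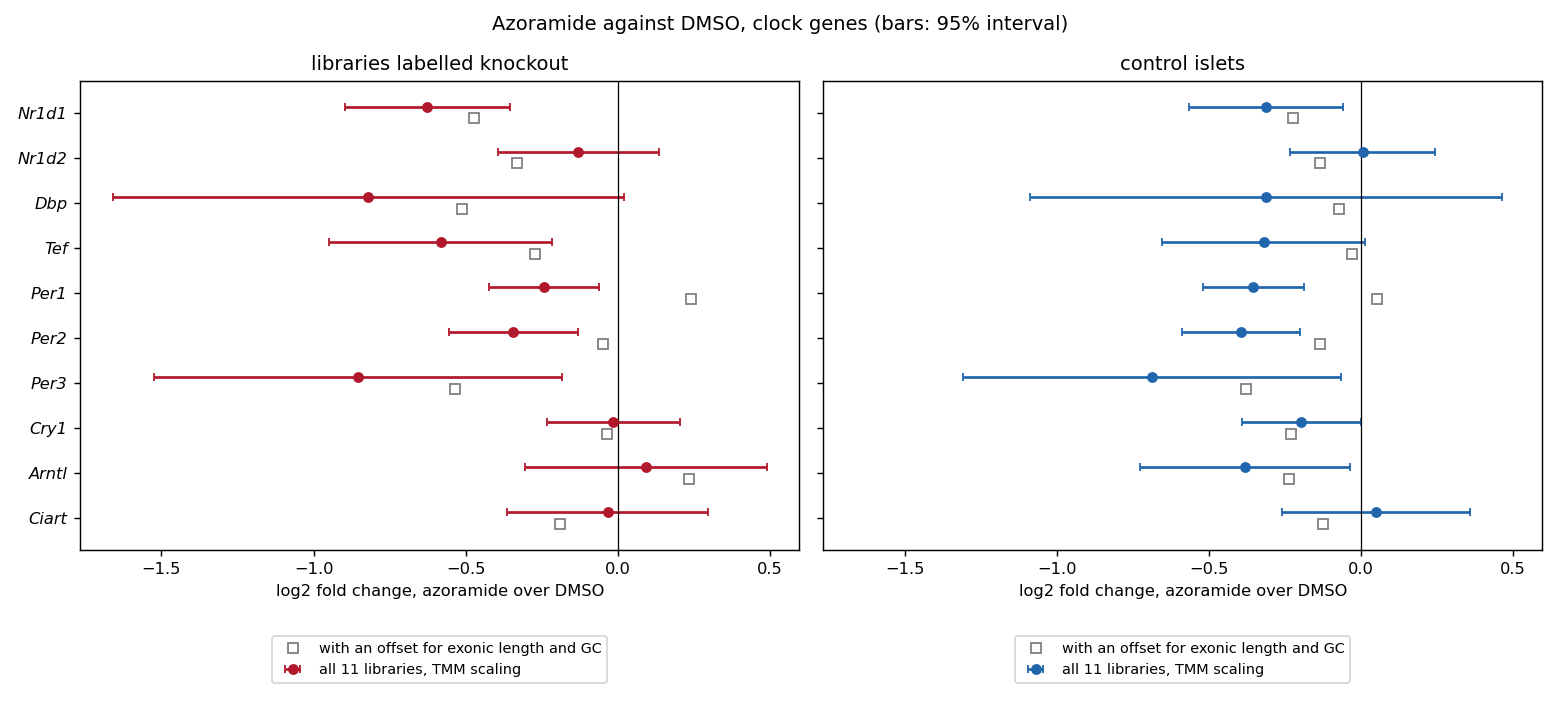
Log2 fold change of each clock gene, azoramide over DMSO, with 95% intervals from the edgeR fit, in libraries labelled knockout and in control islets, where circles are the fit of all libraries and open grey squares the same fit after offsets for length and GC content. For libraries labelled knockout Per3 (-0.86), Dbp (-0.82) and Nr1d1 (-0.63) lie farthest below 0, and the offset puts Per1 at 0.24.

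Azoramide libraries differed from DMSO libraries in other ways that moved with these genes. Over all genes tested, the median log2 fold change in libraries labelled knockout was 0.24, 0.09, -0.04, -0.14 and -0.26 from the lowest to the highest of 5 equal bins by exonic GC content, and 0.29, 0.09, -0.03, -0.10 and -0.16 from the shortest to the longest of 5 bins by exonic length. In control islets it was 0.17, 0.05, -0.04, -0.12 and -0.22 by GC content. Dbp (61.6% GC), Per1 (59.4%) and Nr1d1 (56.8%) were in the highest GC bin. Tef, Per2, Per3, Cry1 and Ciart were in the next highest, Arntl in the middle and Nr1d2 (41.8%) in the lowest. Per3, Tef and Arntl were in the longest length bin. With an offset for length and GC content, the log2 fold change in libraries labelled knockout was -0.53 for Per3, -0.51 for Dbp, -0.47 for Nr1d1, -0.33 for Nr1d2, -0.27 for Tef and -0.05 for Per2, and that of Per1 turned to 0.24. In control islets it was -0.38 for Per3, -0.22 for Nr1d1, -0.14 for Per2, -0.07 for Dbp and -0.03 for Tef, and that of Per1 turned to 0.05. With the offset 1 member (Nr1d1) was called in libraries labelled knockout and 0 in control islets. The shares of all genes tested were 24.2% and 22.6%. The members' median with the offset was -0.23 in libraries labelled knockout and -0.13 in control islets, against -0.01 and -0.02 for all genes. Scaling to plain library totals moved the median of all genes to -0.16 in libraries labelled knockout and -0.19 in control islets, and all 10 members were then below 0 in both.

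Cell type markers also moved with azoramide. The summed level of 5 alpha cell markers was 23560 to 25300 CPM with azoramide, against 14420 to 16420 CPM with DMSO, in libraries labelled knockout. In control islets it was 24280 to 27670 CPM with azoramide, against 14320 to 15840 CPM with DMSO. The sum of 8 beta cell markers was 140900 to 174700 CPM with azoramide and 129900 to 133000 CPM with DMSO in libraries labelled knockout, and 152000 to 192700 CPM with azoramide and 139600 to 142300 CPM with DMSO in control islets. The sum of 6 endothelial markers was 222 to 256 CPM with azoramide and 301 to 313 CPM with DMSO in libraries labelled knockout, and 213 to 274 CPM with azoramide and 303 to 312 CPM with DMSO in control islets. The sum of 6 macrophage markers was 56.9 to 97.1 CPM with azoramide and 42.2 to 43.3 CPM with DMSO in libraries labelled knockout, and 53.6 to 68.8 CPM with azoramide and 39.3 to 50.6 CPM with DMSO in control islets. The islet hormone cells and these other cells were thus present in every library, and their part in the clock gene values was not tested.

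The next question was whether the clock genes differed between labelled knockout and control islets. With DMSO, the edgeR test called 0 of the 10 members and 0% of all genes tested; the unadjusted p was under 0.05 for 531 genes, and 3 genes, none of them a member, were called by DESeq2. Nr1d1 was at 33.6 and 34.8 CPM in libraries labelled knockout, against 26.3, 18.8 and 24.7 CPM in control islets (0.56, SE 0.13). Arntl, which REV-ERB receptors repress, was at 11.4 and 8.63 CPM in libraries labelled knockout, against 14.5, 20.5 and 12.2 CPM in control islets (-0.66, SE 0.19). Neither gene overlapped between the labels. Dbp was at 45.7 and 46.1 CPM in libraries labelled knockout, against 38.4, 17.4 and 39.9 CPM in control islets (0.53, SE 0.36). Tef was at 112 and 113 CPM in libraries labelled knockout, against 92.1, 65.4 and 105 CPM in control islets (0.36, SE 0.16). For these D-box factors the labels did not overlap, and the gap was narrower to control libraries 1 and 3 than to library 2. Nr1d2 differed by 0.27 (SE 0.12), Per2 by 0.30 (SE 0.10) and Per1 by 0.14 (SE 0.09), also without overlap. Per3 (0.34, SE 0.29), Ciart (0.44, SE 0.16) and Cry1 (-0.18, SE 0.10) overlapped.

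Groups with DMSO did not overlap for 6 members higher in libraries labelled knockout (Nr1d1, Nr1d2, Dbp, Tef, Per1 and Per2) and for 1 lower (Arntl). Of all genes tested, 9.87% were higher and 9.57% lower without overlap. The members' median was 0.32, against -0.00 for all genes. Without control DMSO library 2 the differences were smaller for most members. They were then 0.42 for Nr1d1, 0.23 for Dbp, 0.19 for Tef, 0.11 for Nr1d2, 0.06 for Per3 and -0.42 for Arntl, with a median of 0.19. Without that library Ciart was at 0.33, Per2 at 0.22, Per1 at 0.19 and Cry1 at -0.26.

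With azoramide, the edgeR test again called 0 of the 10 members and 0% of all genes tested; the unadjusted p was under 0.05 for 754 genes, and 2 genes, none of them a member, were called by DESeq2. Per2 was at 56.5, 68.3 and 70.9 CPM in libraries labelled knockout, against 53.7, 53.1 and 47.2 CPM in control islets (0.35, SE 0.09). Per1 was at 68.8, 73.3 and 78.3 CPM in libraries labelled knockout, against 58.5, 65.1 and 61.9 CPM in control islets (0.25, SE 0.08). Ciart was at 17.8, 15.1 and 19.5 CPM in libraries labelled knockout, against 13.9, 12.3 and 14.6 CPM in control islets (0.36, SE 0.14). These repressor genes did not overlap between labels, and nor did Per3 (0.17) and Nr1d2 (0.13), all higher in libraries labelled knockout. Of all genes tested, 5.57% were higher and 5.58% lower without overlap. Nr1d1 (0.24), Arntl (-0.18, SE 0.17), Tef (0.10), Dbp (0.02) and Cry1 (0.00) overlapped, and the members' median was 0.15, against 0.00 for all genes. Without labelled-knockout azoramide library 3, which lay above its group mean for all 10 members, the median was 0.11. In that fit 7 members were above 0 and 3 below.

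The interaction, the response to azoramide under the knockout label less the response in control islets, was 0.47 for Arntl (SE 0.25), -0.31 for Nr1d1, -0.51 for Dbp and -0.26 for Tef on the log2 scale. It was 0.18 for Cry1, 0.11 for Per1, 0.05 for Per2, -0.17 for Per3, -0.14 for Nr1d2 and -0.08 for Ciart. The edgeR test of this interaction called 0% of all genes and no member, with 563 genes at an unadjusted p under 0.05 and 0 called by DESeq2. Without control DMSO library 2 the interaction was 0.23 for Arntl, -0.18 for Nr1d1, -0.21 for Dbp, -0.09 for Tef, 0.26 for Cry1, 0.13 for Per2 and 0.06 for Per1. It changed sign for Per3 (0.11), Nr1d2 (0.02) and Ciart (0.02). The responses of the clock genes to azoramide were therefore not shown to differ between labels.

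**Figure D4:**
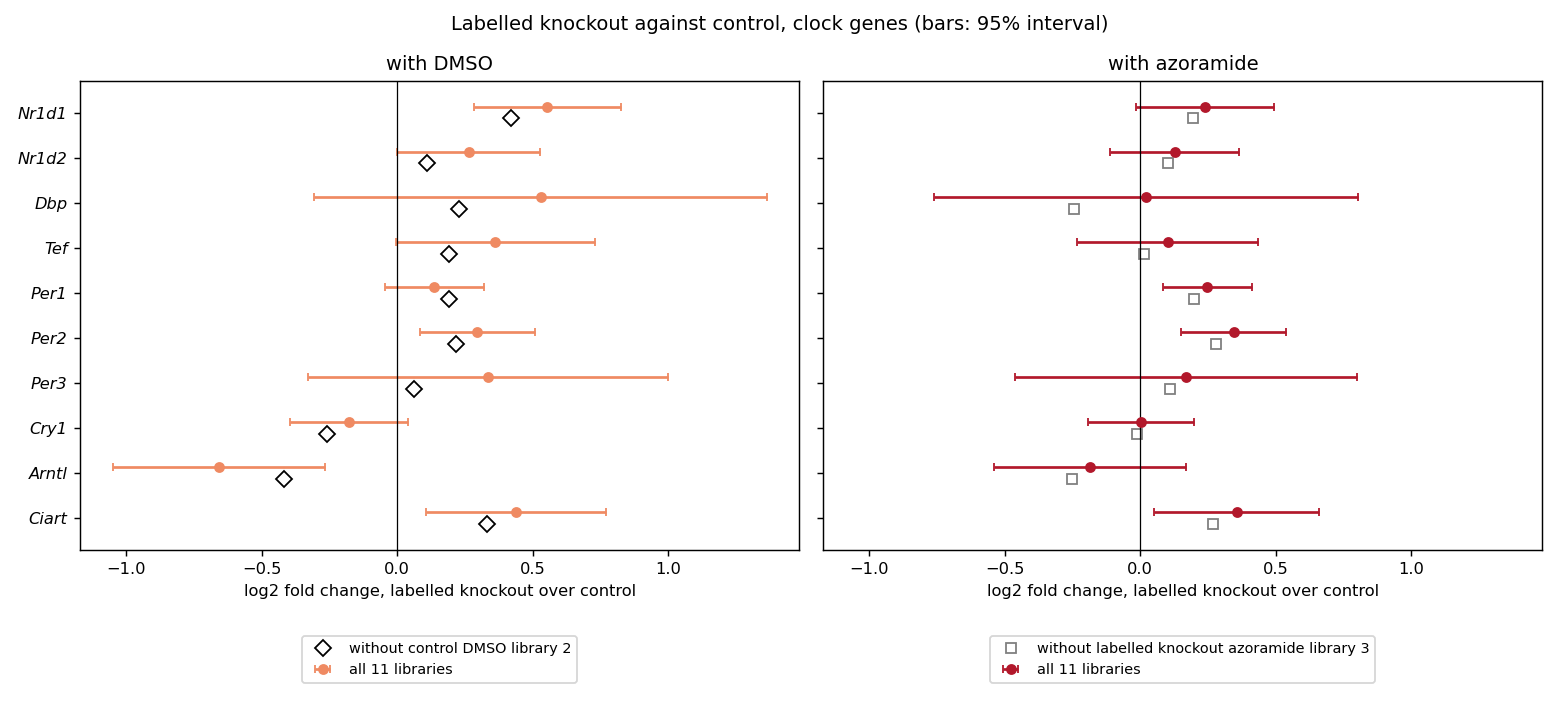
Log2 fold change of each clock gene, labelled knockout over control, with 95% intervals from the edgeR fit, with DMSO and with azoramide. Circles are the fit of all libraries, open diamonds leave out control DMSO library 2 and open squares leave out labelled-knockout azoramide library 3. With DMSO Nr1d1 (0.56) and Arntl (-0.66) lie farthest from 0, and leaving out control DMSO library 2 brings Per3 to 0.06 and Nr1d2 to 0.11.

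The 23 other clock genes on the list, none of them members, were all tested. In libraries labelled knockout 12 of the 23 passed the edgeR test for azoramide, 3 that rose and 9 that fell, and in control islets 12 passed, also 3 that rose and 9 that fell; the shares of all genes called were 39.8% and 39.0%. Without azoramide library 1 or 2 the count in libraries labelled knockout was 8 and 6, against 34% and 33.3% of all genes tested. The median log2 fold change of the 23 genes was -0.10 in libraries labelled knockout and -0.23 in control islets. Clock, the partner of BMAL1, was at 169, 175 and 171 CPM with azoramide in libraries labelled knockout, against 143 and 136 CPM with DMSO. It was at 175, 161 and 174 CPM with azoramide in control islets, against 147, 154 and 144 CPM with DMSO. Clock rose in both, by 0.30 (SE 0.06, edgeR adjusted p = 0.00119) in libraries labelled knockout and by 0.20 (SE 0.06, adjusted p = 0.0109) in control islets, although Arntl did not follow it and with plain library totals its change was 0.14 and 0.03, no longer past the threshold (adjusted p = 0.0712 and 0.731). Npas2 fell in control islets (-0.57, adjusted p = 0.0446) and differed by -0.11 in libraries labelled knockout (adjusted p = 0.762), and Arntl2, a relative of Arntl, passed in neither.

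Among the repressors, Cry2, the relative of Cry1, was at 65.2, 68.6 and 76.3 CPM with azoramide in libraries labelled knockout, against 101 and 99.9 CPM with DMSO. In control islets Cry2 was at 64.6, 62.8 and 63.0 CPM with azoramide, against 90.4, 76.1 and 96.0 CPM with DMSO. It fell by 0.52 (SE 0.09, edgeR adjusted p = 1.3e-04) in libraries labelled knockout and by 0.46 (SE 0.08, adjusted p = 1.6e-04) in control islets. Bhlhe41, a repressor that competes for E-boxes, fell by 0.43 (SE 0.09, edgeR adjusted p = 9.7e-04) in libraries labelled knockout and by 0.38 (SE 0.08, adjusted p = 0.00118) in control islets. Its relative Bhlhe40 fell in control islets by 0.34 (adjusted p = 0.00568) and differed by -0.14 in libraries labelled knockout (adjusted p = 0.272). Timeless did not pass in either. Cry1 and Cry2 thus had different values in libraries labelled knockout, -0.01 and -0.52, but the difference between the genes was not tested.

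Csnk1e and Csnk1d encode the casein kinases that phosphorylate PER proteins and mark them for turnover. Csnk1e fell by 0.49 (SE 0.08, edgeR adjusted p = 1.4e-04) in libraries labelled knockout and by 0.45 (SE 0.07, adjusted p = 1.5e-04) in control islets. Csnk1d fell by 0.31 (SE 0.06, edgeR adjusted p = 7.5e-04) in libraries labelled knockout and by 0.23 (SE 0.06, adjusted p = 0.00322) in control islets. Of the ubiquitin ligase genes that target PER or CRY, Fbxl21 fell in libraries labelled knockout (-0.69) and Btrc in control islets (-0.20), and Fbxw11 passed in neither. With the offset for length and GC content Cry2 was at -0.16 and -0.14, Csnk1e at -0.09 and -0.10 and Csnk1d at -0.07 and -0.03 in libraries labelled knockout and control islets, none past the threshold, while Bhlhe41 still fell (-0.34 and -0.28) and Clock still rose (0.27 and 0.23). Hlf, the D-box activator, fell in libraries labelled knockout (-1.01, edgeR adjusted p = 0.0270) and differed by -0.25 in control islets (adjusted p = 0.532), and Nfil3 passed in neither. Of the ROR receptor genes, whose products activate Arntl, Rora passed in neither comparison, and Rorb was called higher in libraries labelled knockout (edgeR adjusted p = 0.0194) on very few reads, with 6, 24 and 11 counts with azoramide and 2 and 0 counts with DMSO, and it did not pass without azoramide library 2 (adjusted p = 0.0808) or DMSO library 2 (adjusted p = 0.168).

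Among widely cycling outputs, Nampt, which encodes the rate-limiting enzyme of NAD salvage, was at 112, 120.4 and 107 CPM with azoramide in libraries labelled knockout, against 77.9 and 66.9 CPM with DMSO. In control islets Nampt was at 107, 109 and 112 CPM with azoramide, against 91.4, 83.8 and 70.7 CPM with DMSO. It rose by 0.65 (SE 0.09, edgeR adjusted p = 5.5e-05) in libraries labelled knockout and by 0.42 (SE 0.08, adjusted p = 8.4e-04) in control islets. After the length and GC offset Nampt still rose under the knockout label (0.38, edgeR adjusted p = 0.00490) but was at 0.22 in control islets and did not pass there (adjusted p = 0.0554). Usp2, a deubiquitinase gene whose transcript cycles in many tissues, fell by 0.71 (SE 0.25, edgeR adjusted p = 0.0331) in libraries labelled knockout and by 0.86 (SE 0.24, adjusted p = 0.00776) in control islets. Tsc22d3, a glucocorticoid-induced gene also called Gilz, fell by 0.44 (SE 0.13, edgeR adjusted p = 0.0146) in libraries labelled knockout and by 0.42 (SE 0.12, adjusted p = 0.0110) in control islets. Wee1, a cell cycle kinase gene with E-boxes under clock control in mouse liver, rose in control islets (0.31, adjusted p = 0.0439), and Tspan4 passed in neither comparison. Usp2 did not pass in libraries labelled knockout without azoramide library 1 (adjusted p = 0.116), azoramide library 2 (adjusted p = 0.118) or DMSO library 1 (adjusted p = 0.274), nor after the offset (-0.51, adjusted p = 0.147). Tsc22d3 did not pass there without azoramide library 2 or either DMSO library, nor in control islets without DMSO library 3 (adjusted p = 0.0562). Without control DMSO library 2, Npas2 (-0.31, edgeR adjusted p = 0.251) and Wee1 (0.19, adjusted p = 0.194) no longer passed in control islets. Of 14 alternatives in control islets, Npas2 and Wee1 were called in 5 each and Btrc in 7, and of 14 in libraries labelled knockout, Fbxl21 was called in 7 and Hlf in 9. None of the 23 genes was called between labels or in the interaction.

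Per1 also responds to cAMP and glucocorticoid signals, so 6 genes of those inputs were read beside it. Crem, a cAMP-responsive gene that encodes the repressor ICER, was at 96.9, 104 and 69.8 CPM with azoramide in libraries labelled knockout, against 42.0 and 41.1 CPM with DMSO. In control islets Crem was at 82.1, 80.2 and 90.8 CPM with azoramide, against 48.4, 67.9 and 34.8 CPM with DMSO. It rose by 1.12 (SE 0.28, edgeR adjusted p = 0.0150) in libraries labelled knockout and by 0.74 (SE 0.24, adjusted p = 0.0452) in control islets, where 4 of 14 alternatives called it; without control DMSO library 2 it rose by 1.02 (adjusted p = 0.00676). Klf9, a glucocorticoid-induced factor that also cycles, fell by 0.56 (SE 0.07, edgeR adjusted p = 1.3e-05) in libraries labelled knockout and by 0.43 (SE 0.07, adjusted p = 7.1e-05) in control islets. Sgk1 rose in libraries labelled knockout (0.30, adjusted p = 0.0131; called in 12 of 14 alternatives), and Nr3c1, Fkbp5 and Sik1 passed in neither comparison.

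**Figure D5:**
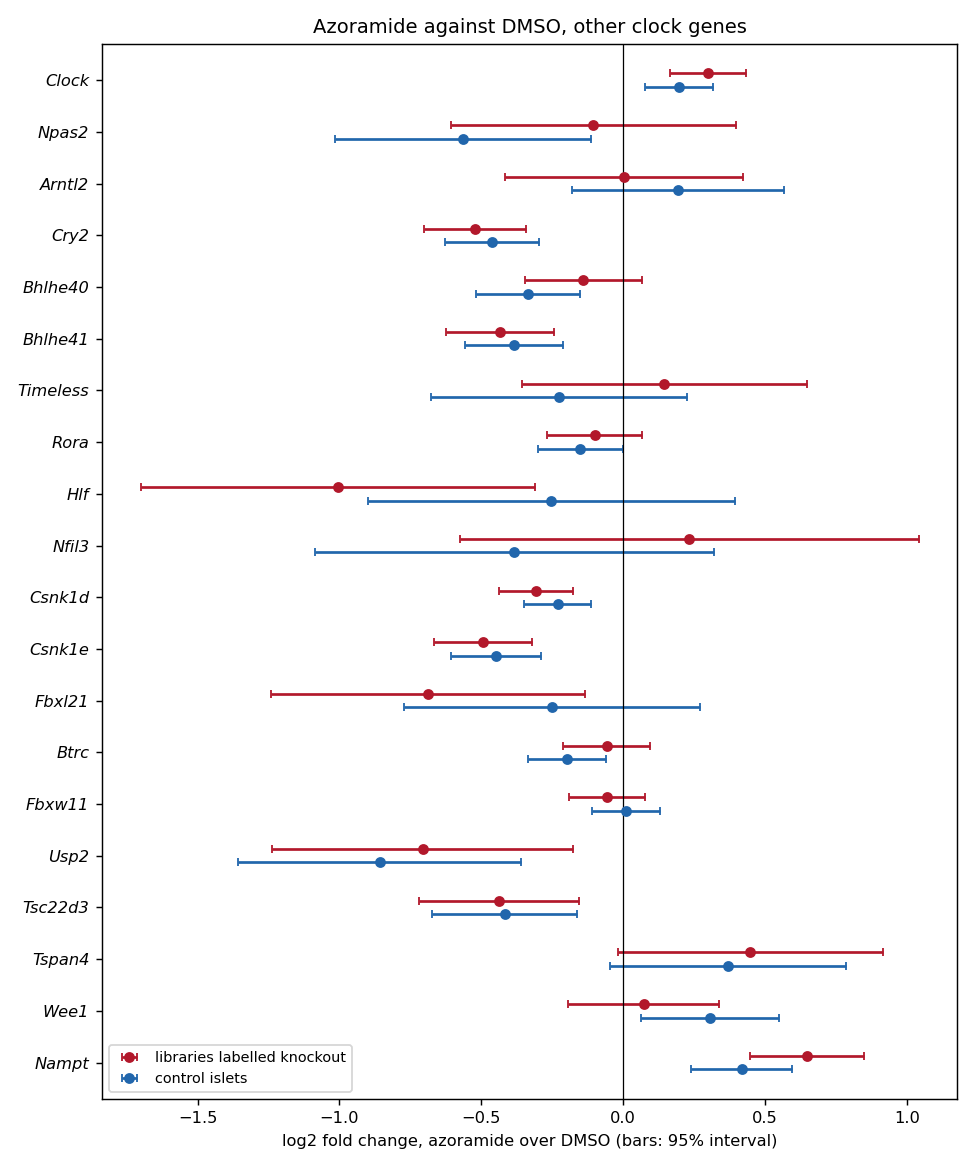
Log2 fold change, azoramide over DMSO, of 20 clock genes outside the set (Rorb, with very few reads, is not drawn), with 95% intervals from the edgeR fit, in libraries labelled knockout and in control islets. Clock and Nampt lie above 0 in both, at 0.30 and 0.20 for Clock, and Cry2, Csnk1e, Csnk1d, Bhlhe41, Usp2 and Tsc22d3 lie below 0 in both.

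Genes whose profile over the 11 libraries was nearest to that of Nr1d1, Dbp and Arntl were sought by the root mean square difference of log2 CPM after each gene was centred on its own mean, among 11606 genes. A value of 0 would mean the same profile, and a flat profile would be 0.32 from Nr1d1, 0.46 from Dbp and 0.30 from Arntl. Nearest to Nr1d1 were Pgm2l1 (0.12), Ube2d1 (0.14) and the member Tef (0.14). Nearest to Dbp were Hlf (0.17), its own relative, then Syt2 (0.18) and Eva1c (0.20). Nearest to Arntl were Hip1r (0.16), Ptpn14 (0.16) and Leo1 (0.19). The libraries share treatment, genotype and gene properties, so these distances describe the profiles only.

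In GRCm38 coordinates, Nr1d1 lies on chromosome 11 from 98767932 to 98775333 on the minus strand, and 263 of its exonic bases are shared with Thra on the opposite strand. Dbp lies on chromosome 7 from 45705088 to 45710203 on the plus strand and shares 539 exonic bases with Sphk2. Tef shares 193 exonic bases with Gm17597 and Arntl shares 33 with Gm45355, each on the opposite strand. Whether counting used strand is not given in the sources used here; reads in those stretches cannot be told apart between partners. Per3 (chromosome 4, 151003652 to 151044665, minus strand), Per1 (chromosome 11, 69095217 to 69109960, plus strand) and Per2 (chromosome 1, 91415982 to 91459324, minus strand) share no exonic bases with another annotated gene.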

How the data were processed

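The authors deposited 1 table of unnormalized counts, 32285 genes by 11 libraries, whose values are whole numbers. STAR 2.7.2a, the mouse build mm10 and DESeq2 are named in the submitters' processing notes; what counted the reads, with which annotation and strand setting, is not given in the sources used here. The unit, each library's group and its number were taken from the labels.

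Differential expression was computed in R 4.3.3 with edgeR 4.0.16 (robust quasi-likelihood test, TMM scaling, its default low-count filter by group), which draws on limma 3.58.1. All 11 libraries entered 1 fit of 4 groups, so the group of 2 shares the estimate of spread. The p-values were adjusted by Benjamini-Hochberg across all 15093 genes tested and called under 0.05, and intervals cover 95%. The profile distance used genes with a mean log2 CPM of at least 1 and a pseudocount of 2. The fit was tested on simulated data in which few genes changed, up and down in near equal number. That test does not show how the scaling behaves where as many genes change as with azoramide. With library totals of 16832800 to 19501813 counts, counting error is relatively largest for the members of lowest count. These are Arntl (180 in its lowest library) and Ciart (214). Libraries of a group differed by more than sampling noise in every pair (chi-square per degree of freedom 5.43 to 23.5), and each was kept as a sample. Exonic length and GC content came from GENCODE M21 of GRCm38, where 32158 identifiers had both, 15084 of them tested.

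The members and all gene lists were chosen with earlier results of these data known. All 10 members and Zzef1 are named in every comparison. Of the other clock genes, the 10 of smallest p over both azoramide comparisons among those called were named, plus Clock and Cry2. Others on the lists are named only to complete a count by role, and this was decided after their values were seen; some listed genes are counted but not reported by name here. For Nr1d1, Dbp and Arntl the 3 genes nearest in profile were named. Alternatives were DESeq2 1.42.0 size factors and its Wald test, plain library totals, no filter on low counts, a length and GC offset per gene (splines of 5 degrees of freedom), only the groups compared, the replicate number as a block, and leaving out each library. Leaving out control DMSO library 2 from fits of groups that do not hold it, and leaving it out together with labelled-knockout azoramide library 3, were chosen after seeing the data.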

Additional observations from a re-analysis of the deposited data

How the results depend on the processing

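The log2 fold changes of the 10 members moved by less than 1 SD in 719 of 740 recomputed values. That SD is the spread of single libraries within groups, a wide measure for refits of mostly the same libraries. The 740 values include the comparisons between labels and the interaction, where no member was called. Among called values the sign turned for Per1 only. Under the offset for exonic length and GC content Per1 reversed to 0.24 in libraries labelled knockout and to 0.054 in control islets. That offset left 1 member called in libraries labelled knockout and 0 in control islets, and 7 and 5 of the other clock genes, with 3660 and 3412 genes called in all. Without the filter on low counts 3 members were called in libraries labelled knockout, against 26.7% of all genes tested. With plain library totals 7 members were called in control islets, and over all genes 1866 rose and 4542 fell in libraries labelled knockout, and 1628 rose and 4943 fell in control islets. Without both control DMSO library 2 and azoramide library 3 of those labelled knockout, 8 members were called in control islets. That fit called 43.1% of all genes tested there, and the libraries were picked after their values in these members were seen. Leaving out 1 library at a time, the count of members called ran from 1 to 4 in libraries labelled knockout (6 without control DMSO library 2, whose group is outside that comparison) and from 2 to 7 in control islets, and that of other clock genes from 6 to 12 and from 9 to 13. Where leaving out 1 library of a comparison left at least 2 in each group, 33.3% to 41.3% of all genes were called in libraries labelled knockout. In control islets the share was 32.1% to 40.1%. The cause of these changes in count was not tested. DESeq2, its size factors and the fit of only the groups compared kept each count within 1.5 times. No member and no other clock gene was called between labels or in the interaction under any alternative run. With the replicate number as a block, 5 members were called in libraries labelled knockout and 2 in control islets, and 11 and 12 other clock genes. The shares of all genes tested were 40.8% and 39.8%. Libraries of the same number did not deviate together in every pair (r = 0.08 and -0.31 for libraries labelled knockout and 0.12, 0.18 and 0.02 for control libraries, over 12316 genes). Each control azoramide library correlated best with the DMSO library of its own number. These correlations cannot settle whether libraries are paired, since the 2 labelled-knockout DMSO libraries deviate from their mean by equal and opposite amounts. The main fit did not use the numbers, and only the fit with the block did.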
